A study of Mus musculus with 2 samples.

Results

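The keratins *Krt8* and *Krt18*, the annexin *Anxa2*, the S100 genes *S100a6*, *S100a10* and *S100a11*, the intermediate filament gene *Vim* and the galectin *Lgals1* were examined in single-cell RNA-seq of mouse ES cells. These 8 genes were taken by name from the 54146 genes listed in the deposited tables, and all 8 were found in both libraries. One library was of a wild-type clone of E14 ES cells (a2.1), and the other was of a *Lin28a* knockout clone of the same line (a3.5), made with CRISPR/Cas9 and a guide to the second exon. Both clones were grown on gelatin with mouse embryonic fibroblast (MEF) feeder cells in medium with LIF and 2i, and were captured with inDrop, a droplet method that tags every captured transcript with the barcode of its droplet and with a unique molecular identifier (UMI). Each genotype is thus 1 clone and 1 library, with no replicate. A difference between the genotypes cannot be told apart from a difference between the clones or the cultures, no test was made, and all intervals are 95% intervals that cover counting error only.

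Keratin 8 and keratin 18 pair into the first keratin filaments of simple epithelia, and in the early embryo they are known from the trophectoderm. Vimentin builds the intermediate filaments of mesenchymal cells. Annexin A2 is a calcium-dependent membrane-binding protein that forms a complex with a dimer of S100A10, while S100A6 and S100A11 are small calcium-binding proteins that bind annexins among other partners, and galectin-1, the product of *Lgals1*, is a secreted lectin abundant in fibroblasts. Genes of this kind are highly expressed in cultured fibroblasts, so in ES cells grown on feeders their level depends on which cells are counted.

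Barcodes with at least 500 UMIs and at most 20% of UMIs on mitochondrial genes were kept, and those with at least 0.3% of UMIs on *Col1a1*, *Col1a2* and *Col3a1* together, the collagen share, were called fibroblasts. This gave 48 fibroblasts (median 8131.5 UMIs) and 1808 other cells (6112 UMIs) in the wild-type library, and 23 fibroblasts (2295 UMIs) and 1599 other cells (5072 UMIs) in the knockout library. Levels are the UMIs of a gene summed over a population per 1000000 UMIs of that population (CPM). The paper describes CRISPR/Cas9 editing of ES cells, and not of the feeders they were grown with. Wild-type and knockout fibroblasts thus name a library, and not a genotype of the fibroblasts. The names fibroblast and other cell were checked with markers that were not used to choose the cells. The 19 further fibroblast markers summed to 16938 CPM in wild-type and 12856 CPM in knockout fibroblasts against 697.6 and 720.4 CPM in other cells, while the 11 ES cell markers summed to 1068 and 1086 CPM in fibroblasts against 5071 and 5132 CPM in other cells. *Lin28a*, the targeted gene, stood at 110.6 CPM (104.5 to 116.9) in wild-type and 36.9 CPM (33.0 to 41.0) in knockout other cells. The guide target lies within the gene and the counts do not resolve it, so the remaining UMIs do not show whether the protein was made. The paper tested its clones for LIN28A protein by Western blot and reported the loss of it. It also sequenced the target region of knockout clones.

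The 8 genes fell into 2 groups by the cells they were found in. *Anxa2*, the 3 S100 genes, *Vim* and *Lgals1* were 8.18 to 241.8 times as high in fibroblasts as in other cells, in both libraries. *Krt8* and *Krt18* had no UMI in any fibroblast and low levels in other cells. At these levels only wild-type *Krt8* had a limit in fibroblasts below its level in other cells.

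**Figure D1:**
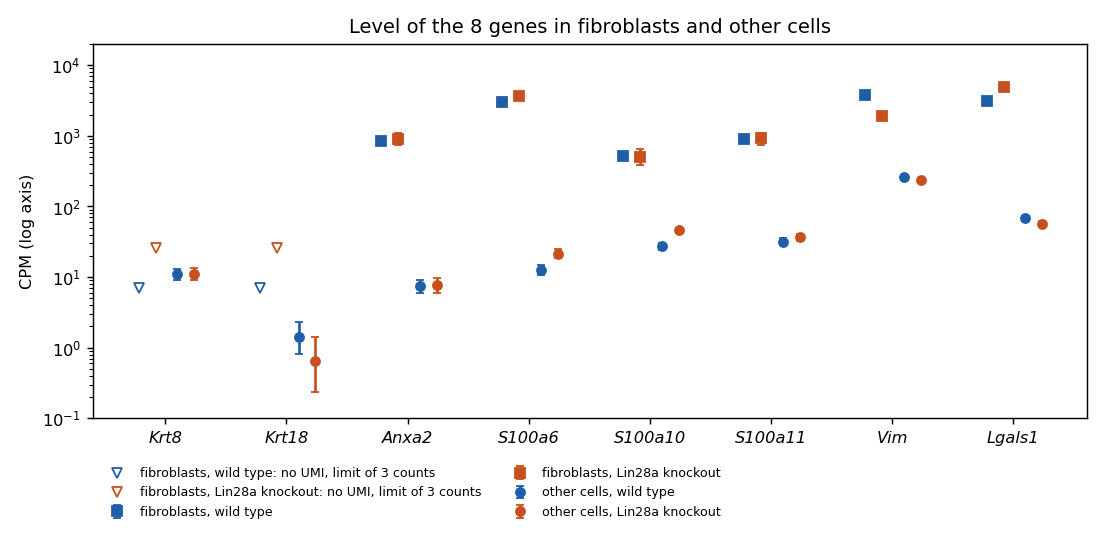
CPM (log axis) of each gene in fibroblasts (squares) and other cells (circles) of the wild-type (blue) and *Lin28a* knockout (orange) libraries, with exact Poisson 95% intervals; open triangles mark the level that 3 counts would give where no UMI was found. For 6 genes the fibroblasts lie far above the other cells, and *Krt8* and *Krt18* were seen only in other cells.

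*Krt8* (ENSMUSG00000049382.10, chromosome 15 from 101996698 to 102004482 of GRCm38, minus strand) and *Krt18* (ENSMUSG00000023043.7, chromosome 15 from 102028180 to 102032027, plus strand) are neighbours, 23697 bases apart. In other cells *Krt8* stood at 10.97 CPM (123 UMIs, 9.12 to 13.1) for wild type and 11.2 CPM (103 UMIs, 9.11 to 13.5) for the knockout. The knockout over wild-type ratio was 1.02 (0.775 to 1.33), but it was not the same at every depth. It was 1.13 (0.530 to 2.36) from 2000 to under 5000 UMIs, 0.574 (0.352 to 0.904) from 5000 to under 10000 and 1.99 (1.13 to 3.70) at 10000 or more, so the intervals of the deeper groups lay on opposite sides of 1. At least 1 *Krt8* UMI was found in 112 wild-type cells, or 6.19% (5.13 to 7.41), and in 95 knockout cells, or 5.94% (4.83 to 7.21). No cell held more than 3. When each cell was taken at 500 UMIs the expected shares were 0.516% and 0.495%.

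Its partner *Krt18* had few UMIs, with 16 wild-type UMIs in 16 cells, 1.43 CPM (0.816 to 2.32), and 6 knockout UMIs in 6 cells, 0.650 CPM (0.239 to 1.42). The ratio of 0.456 had an interval from 0.146 to 1.23. With 22 UMIs in all, the gene was under the minimum of 50 UMIs set for a comparison of the libraries. Among other cells with at least 2000 UMIs, 1 wild-type and 0 knockout cells held UMIs of both keratins.

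In the fibroblasts both keratins were at 0 of 48 wild-type cells, which allows a share of up to 6.25%, and 0 of 23 knockout cells, which allows up to 13.04%. These limits are on cells with a UMI, not on cells that express the gene, and they are no lower than the shares in other cells, so the shares do not set the fibroblasts apart. For *Krt8* the wild-type fibroblasts were at most 0.633 times as high as the other cells. The knockout fibroblasts, with 115122 UMIs in all, allow up to 2.33 times, so a difference was not detectable there, and for *Krt18* the limits were 4.87 and 40.1 times.

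The promoter of *Krt8* is shown because the gene had no UMI in the fibroblasts, where the members other than the keratins were high. The window runs from 250 bases before to 50 bases after the RefSeq start (GRCm38.p6, chr15:102004293-102004592, minus strand), 5′ to 3′, with matches to TATAAA on either strand in capitals.
Krt8: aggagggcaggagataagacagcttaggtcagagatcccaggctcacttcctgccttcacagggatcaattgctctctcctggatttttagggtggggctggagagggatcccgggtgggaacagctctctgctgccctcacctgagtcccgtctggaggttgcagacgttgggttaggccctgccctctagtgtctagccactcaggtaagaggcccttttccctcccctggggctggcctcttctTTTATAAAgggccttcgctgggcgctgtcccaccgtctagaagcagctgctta
In it 2 overlapping matches, 1 on each strand, begin 3 bases and 1 base before the RefSeq start, which lies inside the longer GENCODE gene. TATAAA was found in 13.6% of all 32851 RefSeq windows of this kind, and TGANTCA, the core letters bound by AP-1 factors, in 7.81%; *Krt8* and *Krt18* had no TGANTCA.

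Cells with and without a *Krt8* UMI were compared by their markers. Among cells with at least 2000 UMIs, the ES cell markers stood at 5260 CPM in the 112 wild-type cells with *Krt8* and at 5076 CPM in the 1488 without, and at 5460 and 5184 CPM in the 92 and 1005 knockout cells. The trophectoderm markers stood at 85.5 against 94.2 CPM for wild type and at 83.4 against 87.2 CPM for the knockout. The fibroblast markers stood at 654.8 against 690.2 CPM and at 611.3 against 715.0 CPM, the primitive endoderm markers at 43.3 against 39.7 CPM and at 33.96 against 46.7 CPM, and the collagen genes at 12.9 against 20.7 CPM and at 11.3 against 26.5 CPM. Cells with *Krt8* were also deeper, with medians of 6898 against 6424 UMIs and 10942.5 against 7083 UMIs.

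Of the 11 other keratins looked at, 3 had the 50 UMIs needed for the comparison of the libraries in other cells, and 0 of them differed 2-fold, where 2.49% of all genes compared were 2-fold higher and 1.81% were 2-fold lower in the knockout library. With 3 genes this says nothing about keratins. They were *Krt42* with 56 wild-type and 84 knockout UMIs, a ratio of 1.82 (1.28 to 2.60), *Krt10*, a keratin of differentiating epidermis, with 69 and 43 UMIs, a ratio of 0.757 (0.505 to 1.12), and *Krt7*, a keratin of simple epithelia and trophoblast, with 29 and 30 UMIs, a ratio of 1.26 (0.729 to 2.17). The 5 markers of stratified epithelium summed to 6 wild-type and 7 knockout UMIs.

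*Anxa2* (ENSMUSG00000032231.14, chromosome 9 from 69453620 to 69491795, plus strand) and *S100a10* (ENSMUSG00000041959.14, chromosome 3 from 93555080 to 93564643, plus strand) encode the partners of 1 complex. *S100a11* (ENSMUSG00000027907.4, chromosome 3 from 93520488 to 93526287, plus strand) lies 28792 bases from *S100a10*, and *S100a6* (ENSMUSG00000001025.8, chromosome 3 from 90612882 to 90624181, plus strand) lies 2896306 bases from *S100a11* in the S100 cluster.

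In fibroblasts *Anxa2* stood at 836.4 CPM (752.3 to 927.3) for wild type and 903.4 CPM (738.1 to 1095) for the knockout, against 7.41 CPM (5.90 to 9.18) and 7.70 CPM (6.01 to 9.71) in other cells. The ratio of fibroblasts over other cells was 112.9 (88.7 to 145.2) for wild type and 117.4 (86.0 to 161) for the knockout. A UMI of it was found in 41 of 48 and 14 of 23 fibroblasts, and in 3.65% (2.83 to 4.62) and 2.63% (1.90 to 3.53) of other cells.

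*S100a10*, whose protein binds annexin A2, stood at 523.6 CPM (457.6 to 596.5) in wild-type and 503.8 CPM (382.6 to 651.3) in knockout fibroblasts. In other cells it was at 27.1 CPM (24.2 to 30.4) and 45.7 CPM (41.5 to 50.3). The ratio of fibroblasts over other cells, 19.3 (16.2 to 23.0) and 11.01 (8.22 to 14.5), was therefore well below that of *Anxa2* in each library. The UMI counts of *S100a10* and *Anxa2* were 304 and 83 in wild-type other cells and 422 and 71 in knockout other cells, but 226 and 361 in wild-type fibroblasts and 58 and 104 in knockout fibroblasts. Counts are not per length, so only this shift between the populations is compared, and not the genes.

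*S100a6* had the largest ratio of the 8 genes in both libraries. It stood at 3042 CPM (2880 to 3211) in wild-type and 3718 CPM (3374 to 4087) in knockout fibroblasts, against 12.6 CPM (10.6 to 14.8) and 21.6 CPM (18.7 to 24.8) in other cells, ratios of 241.8 (203.1 to 289.7) and 172.4 (145.3 to 205). In the wild-type library 90.3% (88.7 to 91.8) of its UMIs in kept cells came from fibroblasts, which held 3.71% of all UMIs. In the knockout library the fibroblasts gave 68.3% (64.5 to 71.9) of the *S100a6* UMIs and 1.23% of all UMIs.

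*S100a11* stood at 898.9 CPM (811.7 to 993) and 920.8 CPM (753.8 to 1114) in fibroblasts and at 31.8 CPM (28.5 to 35.2) and 36.4 CPM (32.6 to 40.5) in other cells. Its ratios were 28.3 (24.4 to 32.8) and 25.3 (20.1 to 31.5). For *Anxa2*, *S100a10* and *S100a11* the fibroblasts of the libraries did not differ beyond counting error, with knockout over wild-type ratios of 1.08 (0.860 to 1.35), 0.962 (0.708 to 1.29) and 1.02 (0.818 to 1.27). For *S100a6* the ratio was 1.22 (1.09 to 1.36). By collagen share it was 0.952 (0.791 to 1.14) from 0.3% to under 1% and 1.35 (1.17 to 1.56) at 1% or more. A single knockout fibroblast of 6650 UMIs had 1.49% of its UMIs on *S100a6*, the largest share of any fibroblast. The ratio without that cell was not computed, so how far the difference rests on it was not tested.

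The promoters of *Anxa2* and *S100a11* are shown because, of the 6 members with a RefSeq window, these were the 2 that held TGANTCA, and both genes were high in fibroblasts. Capitals mark TGANTCA and TATAAA on either strand, in windows of GRCm38.p6 at chr9:69453433-69453732 for *Anxa2* and chr3:93520246-93520545 for *S100a11*, both on the plus strand.
Anxa2: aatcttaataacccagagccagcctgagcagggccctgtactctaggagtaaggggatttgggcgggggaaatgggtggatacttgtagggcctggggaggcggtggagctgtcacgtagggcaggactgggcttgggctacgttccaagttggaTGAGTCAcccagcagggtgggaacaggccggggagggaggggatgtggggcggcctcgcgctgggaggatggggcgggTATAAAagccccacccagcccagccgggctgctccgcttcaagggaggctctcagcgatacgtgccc
S100a11: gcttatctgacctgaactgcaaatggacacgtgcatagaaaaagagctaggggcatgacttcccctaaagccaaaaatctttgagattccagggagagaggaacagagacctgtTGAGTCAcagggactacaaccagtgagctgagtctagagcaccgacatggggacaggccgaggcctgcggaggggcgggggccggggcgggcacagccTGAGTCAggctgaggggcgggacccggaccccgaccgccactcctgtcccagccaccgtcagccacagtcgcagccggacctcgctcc
*Anxa2* had 1 TGANTCA, 95 bases before the start, and 1 TATAAA, 17 bases before it, and *S100a11* had 2 TGANTCA, 136 and 38 bases before the start. The windows of *Vim* and *S100a6*, also high in fibroblasts, had no TGANTCA, and that of *Vim* had 1 TATAAA, 32 bases before the start. A match of letters is a description and is no evidence that a factor binds there.

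*Vim* (ENSMUSG00000026728.9, chromosome 2 from 13573927 to 13582826, plus strand) was found in many other cells as well as in fibroblasts. It stood at 3797 CPM (3616 to 3986) in wild-type and 1919.7 CPM (1675 to 2190.2) in knockout fibroblasts, and at 260.1 CPM (250.7 to 269.7) and 234.8 CPM (225.0 to 244.9) in other cells. Among other cells 67.1% (64.9 to 69.3) had a UMI in the wild-type library, compared with 51.2% (48.7 to 53.6) for the knockout, and at 500 UMIs per cell the expected shares were 12.2% and 10.3%. No population of these libraries is known to lack vimentin, so these shares could not be set beside a blank. The ratio of fibroblasts over other cells was 14.6 (13.7 to 15.5) and 8.18 (7.09 to 9.39), the smallest of the 6 genes in each library.

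Of the 6 genes in fibroblasts, *Vim* differed most between the libraries, with a knockout over wild-type ratio at 0.506 (0.437 to 0.582). This compares the feeders of separate cultures, and not fibroblasts of different genotype. The ratio rested on 23 knockout cells, 10 of which had under 2000 UMIs and medians of 9.14% mitochondrial and 2.35% ribosomal protein UMIs. Among fibroblasts with at least 2000 UMIs, 42 wild-type and 13 knockout, *Vim* stood at 3839 and 2066 CPM. In these cells the share of *Vim* in a cell's UMIs ran from 0.0369% to 1.33% with a median of 0.370% for wild type and from 0% to 0.577% with a median of 0.135% for the knockout, and the ranges overlapped. The size of the difference also varied with the collagen share of the fibroblasts, with a ratio of 0.230 (0.160 to 0.320) from 0.3% to under 1%, on 17 wild-type and 7 knockout cells, and of 0.669 (0.570 to 0.783) at 1% or more, on 31 and 16 cells.

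*Lgals1* (ENSMUSG00000068220.6, chromosome 15 from 78926725 to 78930465, plus strand) stood at 3132 CPM (2968 to 3304) in wild-type and 4864 CPM (4470 to 5284.5) in knockout fibroblasts, and at 68.4 CPM (63.7 to 73.5) and 56.9 CPM (52.1 to 62.0) in other cells. Its ratio of fibroblasts over other cells was 45.8 (41.9 to 50.1) and 85.5 (75.7 to 96.5). In fibroblasts the knockout over wild-type ratio was 1.55 (1.40 to 1.71), in the opposite direction to *Vim*. By collagen share it was 1.04 (0.840 to 1.28) from 0.3% to under 1% and 1.85 (1.65 to 2.07) at 1% or more. Among fibroblasts with at least 2000 UMIs the share of *Lgals1* ran from 0% to 1.09% with a median of 0.236% in wild-type cells and from 0% to 1.61% with a median of 0.526% in knockout cells.

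**Figure D2:**
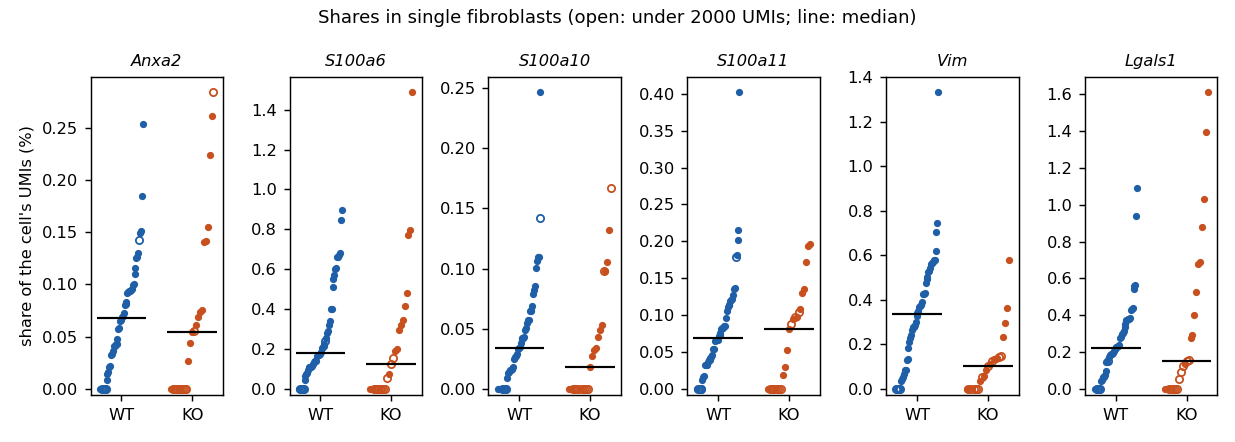
Share of each fibroblast's UMIs on the 6 genes in the wild-type (WT, 48 cells) and knockout (KO, 23 cells) libraries; open points are cells under 2000 UMIs and black lines are medians over all fibroblasts. The points of the libraries overlap for every gene, and several cells at 0 are shallow.

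Past a 4-fold difference between fibroblasts and other cells, 6 of the 7 members with at least 50 UMIs were higher in fibroblasts in the wild-type library, where 7.76% of the 12815 genes compared were, and 6 of 7 in the knockout library, where 5.69% of 12170 genes were. Only 0.406% and 0.148% of genes had a larger ratio than *S100a6*, and 2.302% and 2.03% a larger one than *Vim*. The collagen genes that defined the fibroblasts are no members, but cells chosen by collagen are chosen as mesenchymal, and the members were picked with these data known.

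Relatives of the members were split in the same comparison, in which 7.76% of all genes compared were higher in wild-type and 5.69% in knockout fibroblasts. Genes with most of their UMIs in fibroblasts could reach the 50 UMIs needed only through them, so the counts of relatives describe the genes compared and no more. Of the 11 other annexins, 8 could be compared in the wild-type library and 4 were higher in fibroblasts. Among them was *Anxa8*, with 59 fibroblast UMIs and 19 in other cells, which was named after its values were seen. *Anxa5*, which binds phosphatidylserine, stood at 583.8 CPM in wild-type fibroblasts against 15.2 CPM in other cells, a ratio of 38.5 (31.6 to 47.0). *Anxa7*, at 94.99 against 68.3 CPM, and *Anxa4*, at 25.5 against 36.7 CPM, did not reach 4-fold. *Anxa6* had a ratio of 3.10 for wild type and 4.87 for the knockout, on 22 and 11 fibroblast UMIs.

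Of the 13 other S100 genes, 2 could be compared in the wild-type library, of which *S100a16* was higher in fibroblasts, with 45 fibroblast UMIs against 11 in other cells, a ratio of 106.2 (54.1 to 227.7), and reached the minimum through its fibroblast UMIs. *S100a13*, with 9 and 120 UMIs, had a ratio of 1.95 (0.869 to 3.82). *S100a7a* and *S100a1*, with 46 UMIs each in that library, were too low to compare.

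Among 5 genes for proteins that bind annexins or S100 proteins, *Ahnak*, a large scaffold protein bound by the annexin A2 complex, was higher in fibroblasts, at 1161 against 74.0 CPM for wild type and 477.8 against 46.4 CPM for the knockout. *Cacybp*, whose protein binds S100A6, was at 88.0 against 307.1 CPM in the wild-type library, and *Cltc*, clathrin heavy chain, and *Pdcd6*, a calcium-binding partner of annexins, had ratios of 1.41 and 1.06.

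In the wild-type library *Lgals9*, *Lgals3*, *Lgals3bp* and *Lgals8* could be compared and were 11.7, 6.92, 89.7 and 21.6 times as high in fibroblasts, but *Lgals3bp*, with 114 fibroblast UMIs and 33 in other cells, and *Lgals8*, with 30 and 36, would not have reached the minimum without them; *Lgals3bp* encodes a protein that binds galectins and is no galectin itself. Of the other intermediate filament and linker genes, *Lmna*, the A-type lamin, was 21.2 (17.4 to 25.8) and 17.4 (12.95 to 23.1) times as high in fibroblasts, whereas *Lmnb1* was at 27.8 against 435.1 CPM in the wild-type library. *Lmnb2* and *Jup*, plakoglobin, were at 16.2 against 61.7 and 108.9 against 152.8 CPM there. Among 21 actin cytoskeleton genes, 19 could be compared and 8 were higher in wild-type and 6 in knockout fibroblasts, where 7.76% and 5.69% of all genes compared were. *Actb* (ratio 0.935 in the wild-type library), *Pfn1* (0.569), *Actg1* (1.16) and *Cfl1* (0.680) were not among them.

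The median log2 ratio of fibroblasts over other cells was 5.17 over the members with UMIs in both populations of the wild-type library and 5.54 over those of the knockout library. It was -0.16 and -0.01 over the 12156 and 10150 genes compared that had UMIs in both populations. *Krt8* and *Krt18*, with no UMI in fibroblasts, are not in the members' medians. For the actin cytoskeleton genes the median was 1.78 and 1.51.

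Cells with 0.05% to under 0.3% collagen, 29 wild-type and 40 knockout cells that count as other cells, were examined next. *S100a6* stood there at 488.6 and 1093 CPM, against 11.5 and 10.6 CPM in the 1594 and 1426 cells with no collagen UMI. *Lgals1* stood at 540.0 and 1273 CPM against 68.2 and 46.2 CPM, and *S100a11* at 282.9 and 668.6 CPM against 30.7 and 29.99 CPM. *Vim* stood at 411.4 and 900.1 CPM against 256.4 and 228.3 CPM, and for wild type its ratio of 1.60 (0.916 to 2.61) does not exclude 1. These levels rested on few cells. The 4 knockout cells of this group that held the most UMIs of at least 1 of the 6 genes among other cells had 84 of its 85 *S100a6* UMIs, 96 of 99 *Lgals1* UMIs, 50 of 52 *S100a11* UMIs and all 21 *Anxa2* UMIs. The 1 such wild-type cell had 16 of 19 *S100a6*, 18 of 21 *Lgals1* and 9 of 11 *S100a11* UMIs. Without these cells, picked for their member counts, 3 wild-type and 1 knockout UMIs of *S100a6* were left in the group. The group was also shallow, with medians of 752 and 1031.5 UMIs against 6035.5 and 4893.5 UMIs in cells without a collagen UMI, since 1 collagen UMI is enough to bring a shallow cell into it, so collagen share and depth cannot be told apart there. In cells with a trace of collagen, over 0% and under 0.05%, which had at least 2134 and 2038 UMIs and medians of 7406 and 8219, *Vim* stood at 281.6 and 234.2 CPM and *Anxa2* at 6.34 and 8.25 CPM. In the wild-type library *S100a10* was lower there than without collagen, at 16.9 against 28.0 CPM, a ratio of 0.603 (0.380 to 0.917), while in the knockout library it stood at 47.8 against 44.6 CPM, a ratio of 1.07 (0.798 to 1.42). Wild-type *Lgals1* stood there at 57.0 against 68.2 CPM. *S100a6* stood there at 7.04 CPM for wild type but at 24.7 CPM for the knockout, 2.34 (1.49 to 3.59) times its level in knockout cells without collagen. Just below the limit, at 0.2% to under 0.3% collagen, there were 2 wild-type and 4 knockout cells. They had 1644 and 23668 UMIs in all and 0 and 36 of *Vim*, of which 27 were in 1 knockout cell of 18430 UMIs. Just above the limit, under 0.4%, there were 6 and 1 cells, with 19713 and 598 UMIs in all and 60 and 0 of *Vim*. The 1 knockout cell there had fibroblast markers at 0 CPM and ES cell markers at 6689 CPM, so its markers do not bear out the name fibroblast. At such unequal depths these counts cannot be compared.

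**Figure D3:**
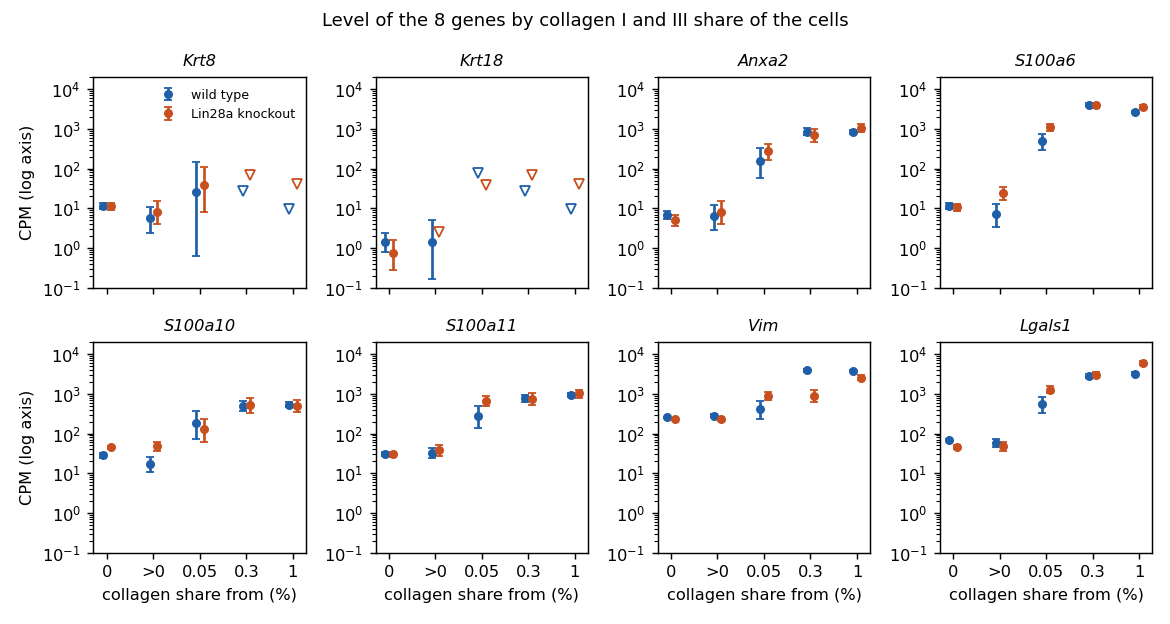
CPM (log axis) of each gene in cells grouped by collagen share, with the lower bound of each group on the horizontal axis, for wild-type (blue) and knockout (orange) libraries, with exact Poisson 95% intervals; open triangles mark the level of 3 counts where no UMI was found. The level of *S100a6* in the group from 0.05%, at 488.6 CPM for wild type and 1093 CPM for the knockout, rests on 1 and 4 cells that held 16 of its 19 and 84 of its 85 UMIs there.

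Some cells in the group called other carried fibroblast markers with little collagen. The knockout cell with the most *S100a6* had 42 of its 199 UMIs in other cells and 49 of the 525 *Lgals1* UMIs, with 3305 UMIs in all, 2 collagen UMIs, 73 UMIs of the 19 fibroblast markers and 2 of the ES cell markers. The knockout cell with the most *S100a11*, 18 UMIs, had 100 fibroblast marker UMIs and 0 ES cell marker UMIs among 5069. In the wild-type library the cell with the most *S100a6*, 19 UMIs, had 1273 UMIs, 0 collagen UMIs and 0 ES cell marker UMIs. It had only 2 fibroblast marker UMIs, so its markers name it neither way. These cells were picked for their member counts and are described, not compared.

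Other cells were therefore split by a measure that uses neither members nor collagen, after the data were seen. Cells with under 0.2% of UMIs on the 11 ES cell markers numbered 70 in the wild-type library, 3.87% of other cells, and 148 in the knockout library, 9.26%. They were shallow, with medians of 762 and 890 UMIs, and had fibroblast markers at 2145 and 2546 CPM against 688.3 and 686.6 CPM in the rest. Their share of the *S100a6* UMIs in other cells was 45.4% and 53.3%, of the *Anxa2* UMIs 21.7% and 42.3%, and of the *Lgals1* UMIs 7.95% and 22.5%. Of the *S100a10* UMIs they held 5.92% and 3.79% and of the *Vim* UMIs 2.16% and 4.25%. These shares are to be set beside their share of all UMIs in kept cells, 0.613% and 1.80%. *Vim* stood in them at 883.2 and 548.5 CPM, and *S100a10*, on 18 and 16 UMIs, at 252.3 and 95.4 CPM. All 4 values lay above those in the rest. With 71332 and 167745 UMIs in all, these cells would show 3 *Krt8* UMIs only at 42.1 and 17.9 CPM, above the level in other cells, so the absence of *Krt8* UMIs in them says little.

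In the remaining 1738 wild-type and 1451 knockout cells, *S100a6* stood at 6.91 and 10.3 CPM, *Anxa2* at 5.84 and 4.53 CPM, *S100a10* at 25.7 and 44.8 CPM, *S100a11* at 30.3 and 31.2 CPM, *Lgals1* at 63.4 and 44.9 CPM and *Vim* at 256.1 and 229.0 CPM. Vimentin transcripts were thus found in cells with ES cell markers. Their level there had to lie close to that of other cells as a whole, since these cells held most UMIs. It was higher in the cells poor in ES cell markers, at 883.2 and 548.5 CPM. Those few cells also held 45.4% or more of the *S100a6* UMIs of other cells. Most of these *S100a6* UMIs were in very few cells. Of the 64 wild-type UMIs, 40 were in 3 cells. Of the 106 knockout UMIs, 42, 19 and 12 were in cells of 3305, 5069 and 2946 UMIs.

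**Figure D4:**
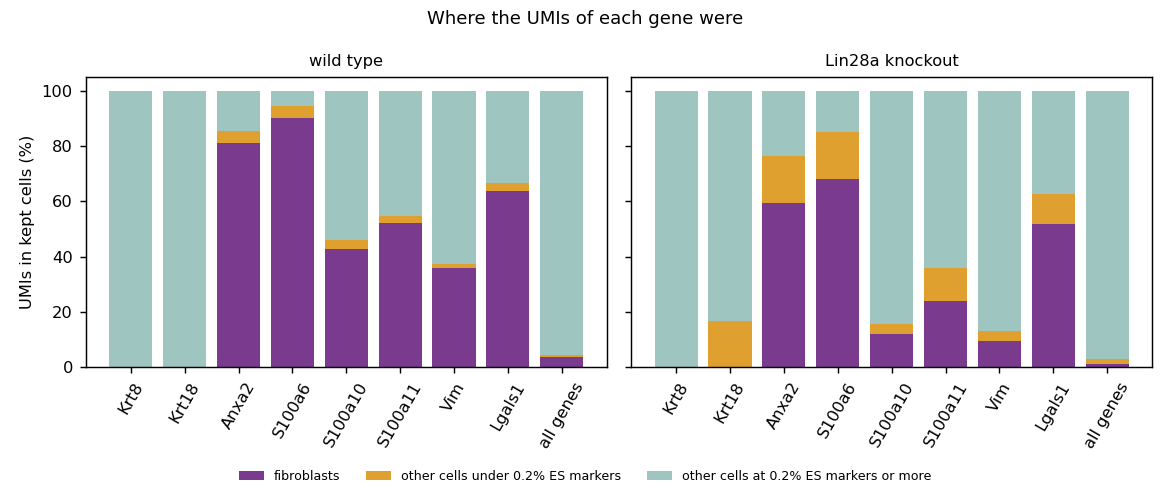
Percent of each gene's UMIs in kept cells that came from fibroblasts, from other cells under 0.2% ES cell markers and from other cells at or above it, in each library; the last bar gives the split of all UMIs. *S100a6* and *Anxa2* came mostly from fibroblasts, *S100a10* and *Vim* mostly from cells with ES cell markers, in both libraries.

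Free RNA from fibroblasts can add UMIs to any droplet, and its part in these levels was not tested. In other cells *Col1a1*, *Col1a2* and *Col3a1* stood at 0.144%, 0.0759% and 0.0680% of their fibroblast level for wild type and at 0.166%, 0.145% and 0.0965% for the knockout, values that the limit on collagen holds down. *S100a6* stood at 0.414% and 0.580% and *Anxa2* at 0.885% and 0.852% of their fibroblast levels. The median of the fibroblast markers outside the rule was 0.433% over 17 genes, ranging from 0.0584% to 30.01%, and 1.21% over 12, ranging from 0.394% to 54.3%. Only markers with a set minimum of UMIs in the fibroblasts of the library were taken. They entered through the population where they are high, and the libraries had different sets of them. The medians thus describe these markers and set no background for the members. *Lgals1* stood at 2.18% and 1.17%, *S100a11* at 3.53% and 3.96%, *S100a10* at 5.18% and 9.08% and *Vim* at 6.85% and 12.2%. The percentages thus differed between members of the same cells, with *S100a10* and *Vim* above *S100a6* and *Anxa2* in both libraries.

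Between the libraries, 0 of the 7 members with enough UMIs in other cells differed 2-fold or more, where 2.49% of the 15104 genes compared were 2-fold higher and 1.81% were 2-fold lower in the knockout library. The median log2 ratio of all genes was 0.08, and that of the members 0.06.

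*S100a10* was higher in the knockout library under every alternative setting run, with ratios from 1.61 to 1.82. It had 304 UMIs in wild-type and 422 in knockout other cells, a knockout over wild-type ratio at 1.69 (1.45 to 1.961), and 6.09% of genes had a larger one. In cells without any collagen UMI the ratio was 1.59 (1.36 to 1.87), in those with a trace of collagen, on 24 and 58 UMIs, 2.83 (1.73 to 4.76), and in cells with at least 0.2% ES cell markers 1.75 (1.497 to 2.04). By depth it was 1.66 (1.07 to 2.57) from 2000 to under 5000 UMIs, 2.08 (1.67 to 2.59) from 5000 to under 10000 and 1.37 (1.04 to 1.81) at 10000 or more, but 0.248 (0.117 to 0.507) under 2000 UMIs, where there were 22 wild-type and 14 knockout UMIs. Of the 22, 11 were in 2 cells, and without the cells picked for their member counts the ratio under 2000 UMIs was 0.487 (0.205 to 1.18). In cells with 5% to 10% of UMIs on ribosomal protein genes it was 2.12 (1.66 to 2.72), and in those with 10% or more 1.42 (1.17 to 1.73). Ratios below 1 were seen on few UMIs in 2 further groups. Under 5% ribosomal protein UMIs, with 2 wild-type and 4 knockout UMIs, it was 0.494 (0.0707 to 5.46). From 0.05% to under 0.3% collagen, with 7 and 10 UMIs, it was 0.714 (0.245 to 2.21). The libraries also differed in these measures, with median ribosomal protein shares of 9.81% and 10.97% in other cells, and their part in the difference was not tested beyond these groups.

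*S100a6*, with 141 and 199 UMIs, had a ratio of 1.71 (1.37 to 2.14), which varied with the choice of cells. In cells without a collagen UMI, with 112 and 84 UMIs, the ratio was 0.921 (0.686 to 1.23), but 25 of the 112 wild-type UMIs were in 3 of the cells with the most UMIs of a member. Without those it was 1.18 (0.866 to 1.62), and with at least 0.2% ES cell markers 1.40 (0.985 to 1.98), so the side of 1 depended on few cells and all 3 intervals include 1. Under 0.05% collagen it was 1.14 (0.876 to 1.48). In cells with 0.05% to under 0.3% collagen there were 19 wild-type and 85 knockout UMIs. In cells with at least 0.2% ES cell markers the ratio was 1.48 (1.09 to 2.04), and in those with at least 2000 UMIs and under 0.05% collagen 1.35 (0.976 to 1.86). The first of these sets kept a knockout cell of 18430 UMIs with 141 fibroblast marker, 45 collagen and 88 ES cell marker UMIs. It held 11 of the 93 knockout *S100a6* UMIs of the set. By depth the ratio ran from 0.201 (0.127 to 0.313) under 2000 UMIs to 7.56 (4.50 to 13.4) from 2000 to under 5000, but both ends rested on few cells. In the deeper group 2 knockout cells, of 3305 and 2946 UMIs with 2 and 0 ES cell marker UMIs, held 54 of the 84 knockout UMIs, and under 2000 UMIs 3 wild-type cells held 40 of the 62 wild-type UMIs. Without the cells that held the most UMIs of a member, the ratios were 0.556 (0.313 to 1.005) and 2.72 (1.47 to 5.18), and in cells with at least 0.2% ES cell markers 1.28 (0.495 to 3.89) and 1.497 (0.538 to 4.10). Over all depths the ratio without those cells was 1.40 (1.06 to 1.85).

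*Lgals1* was lower in the knockout library, with 767 and 525 UMIs, a ratio of 0.832 (0.743 to 0.930). Without collagen UMIs the ratio was 0.678 (0.595 to 0.771). By depth it ran from 0.219 (0.142 to 0.332) under 2000 UMIs to 1.77 (1.35 to 2.305) from 2000 to under 5000. The same 2 knockout cells held 64 of the 121 knockout UMIs of the deeper group, and without them the ratio there was 0.837 (0.597 to 1.16), so its direction above 1 rested on them. In cells with at least 0.2% ES cell markers it was 0.713 (0.491 to 1.02) in that group and 0.627 (0.281 to 1.47) under 2000 UMIs. Under 2000 UMIs, 42 of the 66 wild-type *Lgals1* UMIs were in 3 cells, and without them the ratio there was 0.589 (0.343 to 1.03). *Vim*, with 2915 and 2166 UMIs, had a ratio of 0.903 (0.854 to 0.955), and 0.891 (0.838 to 0.947) in cells without a collagen UMI. By ribosomal protein share the *Vim* ratio was 0.308 (0.174 to 0.551) under 5%, 0.979 (0.902 to 1.06) from 5% to 10% and 0.934 (0.862 to 1.01) at 10% or more. It was 0.548 (0.398 to 0.757) under 2000 UMIs, or 0.806 (0.562 to 1.17) without the cells picked for their member counts. From 5000 to under 10000 UMIs it was 0.948 (0.873 to 1.03). Over all other cells the intervals of *Lgals1* and *Vim* lie below 1 on counting error, but not in every group. Both sizes lie among those of most genes, with 22.3% of genes having a lower ratio than *Lgals1* and 30.2% a lower one than *Vim*.

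*Anxa2* had 83 wild-type and 71 knockout UMIs, a ratio of 1.04 (0.746 to 1.44), and *S100a11* had 356 and 336, a ratio of 1.15 (0.985 to 1.33). In cells without a collagen UMI they were 0.723 (0.476 to 1.08) and 0.978 (0.821 to 1.16). These intervals all include 1, but the ratios varied with depth. For *Anxa2* the ratio was 0.321 (0.146 to 0.692) under 2000 UMIs, 2.66 (1.31 to 5.59) from 2000 to under 5000, 1.23 (0.680 to 2.19) from 5000 to under 10000 and 0.377 (0.170 to 0.814) at 10000 or more. For *S100a11* it was 0.325 (0.170 to 0.614), 1.85 (1.198 to 2.87), 1.18 (0.937 to 1.49) and 0.908 (0.689 to 1.202) in the same groups, and 1.58 (1.23 to 2.01) in cells with 5% to 10% ribosomal protein UMIs against 0.902 (0.740 to 1.10) in those with 10% or more. From 2000 to under 5000 UMIs, 12 of the 23 knockout *Anxa2* UMIs and 22 of the 48 *S100a11* UMIs were in the same 2 knockout cells, and without them the ratios were 1.28 (0.526 to 3.04) and 1.01 (0.594 to 1.68). Under 2000 UMIs, 13 of the 17 wild-type *Anxa2* UMIs and 11 of the 24 *S100a11* UMIs were in 3 cells, and without them the ratios were 1.34 (0.420 to 5.58) and 0.588 (0.278 to 1.29). *S100a10* and *Anxa2*, the partners of 1 complex, had intervals that did not overlap in cells without collagen, 1.36 to 1.87 against 0.476 to 1.08.

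**Figure D5:**
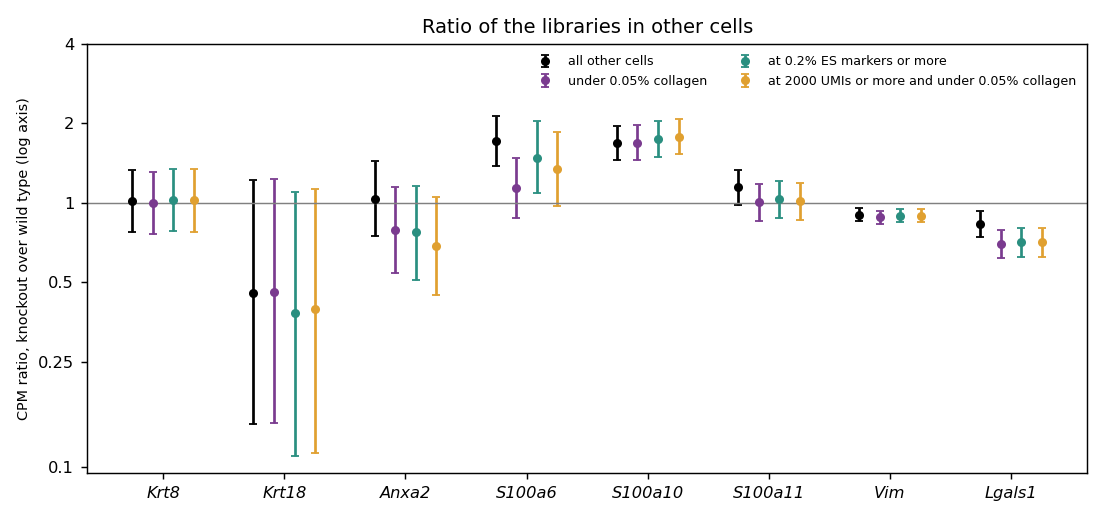
Ratio of CPM in knockout over wild-type other cells (log axis) with its 95% interval, for all other cells (black), those under 0.05% collagen (purple), those with at least 0.2% ES cell markers (green) and those with at least 2000 UMIs and under 0.05% collagen (yellow). *S100a10* lies between 1.69 and 1.78 in the 4 sets, whereas *S100a6* falls from 1.71 to 1.14 under 0.05% collagen.

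Between the libraries in other cells, 2.49% of the 15104 genes compared were 2-fold higher and 1.81% were 2-fold lower in the knockout library. Beside these shares, counts from the short lists that follow say little about any list. Of the other annexins, 8 could be compared, with 1 higher and 1 lower past 2-fold. These were *Anxa8*, with 19 wild-type and 40 knockout UMIs, a ratio of 2.56 (1.45 to 4.68), and *Anxa3*, with 56 and 22 UMIs, a ratio of 0.477 (0.277 to 0.794), both named after their values were seen. None of 4 other S100 genes and none of 5 binding partners passed 2-fold. *Ahnak* had a ratio of 0.627 (0.557 to 0.706) and *Cacybp* of 0.587 (0.553 to 0.623). Of the other galectins compared, *Lgals9* was higher, with 126 and 278 UMIs, a ratio of 2.68 (2.16 to 3.34), while *Lgals3* had a ratio of 1.30 (1.02 to 1.65) and *Lgals8* of 1.11 (0.673 to 1.84). *Lgals3bp*, the gene of the galectin-binding protein, was also higher, with 33 and 56 UMIs, a ratio of 2.06 (1.32 to 3.27). *Lgals9* thus differed in the opposite direction to *Lgals1*. None of 19 actin cytoskeleton genes and none of 8 other intermediate filament and linker genes passed 2-fold. Of the 11 fibroblast markers compared, *Bgn* was higher, with 52 and 86 UMIs, a ratio of 2.01 (1.41 to 2.89). *Anxa8*, *Lgals3bp* and *Bgn* each had more wild-type UMIs in fibroblasts than in other cells. Their ratios were not computed without the other cells that carried fibroblast markers, so how far they rest on such cells was not tested. Of the 5 trophectoderm markers compared, *Gata3* was higher, with 34 and 56 UMIs, a ratio of 2.00 (1.28 to 3.16), and it was named after its values were seen. Of 4 primitive endoderm, 2 macrophage, 2 endothelium and 11 ES cell markers 0 passed 2-fold.

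Outside the fibroblasts, members correlated weakly in the wild-type library. With each other cell of at least 2000 UMIs thinned to 2000, Pearson's r of log-normalized values across 1600 wild-type cells was at most 0.159, for *Anxa2* and *S100a6*, with 2 cells that held both. Across 1097 knockout cells the same pair had r = 0.503 with 4 such cells, and in the 1090 of them under 0.05% collagen r = 0.228 with 1 cell. *Anxa2* and *S100a10* had r = 0.0410 and 0.0954. Across the 48 and 23 fibroblasts, not thinned and of unequal depth, the same pairs had r = 0.656 and 0.648 and r = 0.782 and 0.302, *S100a6* and *Lgals1* 0.745 and 0.889, and *Vim* and *Lgals1* 0.769 and 0.531. These values describe cells of 1 library each, which share depth and any free RNA.

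The genes most like each member across other cells had weak correlations, between 0.0535 and 0.119 in the library where they were lower, among 3027 genes found in at least 10% of cells. For *Vim* they were *Npm1*, *Ptma* and *Pabpc1*, abundant genes found in over 89% of cells. *Itgb1*, the integrin beta-1 subunit, was among the 3 nearest for both *Anxa2* (r = 0.0818 and 0.0761) and *S100a6* (0.0787 and 0.0962). At this sparsity none of them set a pattern apart.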

How the data were processed

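Single-cell RNA-seq was analysed in 2 inDrop libraries, 1 per genotype. The wild-type library was mapped to its group by its title and the knockout library by its treatment label. The values are UMI counts, which the authors deposited unnormalized as 1 table per library. Per the labels the genome build was mm10 and Seurat 2.3.4 was among the tools; aligner, annotation and use of strand are not given in the sources used here. The tables held 12079546 UMIs over 4329 barcodes (wild type) and 10027710 over 6060 (knockout). Barcodes are numbered, so barcodes shared by the libraries could not be counted. Of 54146 gene identifiers, 54079 got a symbol from GENCODE M21 (GRCm38). At most 1 UMI of a member was counted as ambiguous. *Krt8* overlaps *Gm36026* and *Anxa2* overlaps *Gm16144*, both on the other strand, and *Anxa2* also overlaps *Mir3109* on the same strand.

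The members and gene lists were chosen with earlier results of these data known. CPM had exact Poisson intervals, shares exact binomial (Clopper-Pearson) intervals and ratios the exact interval for 2 counts. Where no UMI was found, 3 UMIs served as the upper limit. Genes needed 50 UMIs over the populations compared, and the folds were 2 between libraries and 4 between populations. Shares at 500 UMIs came from the hypergeometric distribution, and cells were thinned with seed 1. Doublets (25 and 15 cells marked by Scrublet) were kept, and were left out as an alternative. The rule was to name all 8 members, from each list at most the 4 genes with the most UMIs, and per member the 3 genes with the highest correlation. *Anxa8*, *Anxa3* and *Gata3* were named outside this rule, after their values were seen. Other settings were minimums of 1000 and 2000 UMIs or none, mitochondrial limits of 10% or none, other collagen limits, a denominator without mitochondrial and ribosomal protein genes, median of ratios scaling and cells under 5% ribosomal protein UMIs left out. Calculations were tested on simulated data. Promoter windows were from RefSeq (GRCm38.p6), which held 6 of the 8 members. Calculations used scipy 1.17.1, scanpy 1.11.5 for Scrublet, and pandas 2.3.3, under Python 3.11.15, with figures from matplotlib 3.10.9.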

Additional observations from a re-analysis of the deposited data

Results flagged for a closer look

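Barcodes under 500 UMIs, which the comparisons left out, held 298 UMIs of the 8 genes in the wild-type library, over 2472 barcodes with a median of 147 UMIs, and 371 UMIs in the knockout library, over 4423 barcodes with a median of 129 UMIs. Summed over so many barcodes, these counts were bound to pass the 3 counts that a count of 0 allows, so passing that limit says nothing about expression. *Vim* stood there at 343.9 and 280.8 CPM, *Lgals1* at 125.3 and 101.01 CPM and *S100a6* at 91.1 and 60.9 CPM; all 6 values lay above those of other cells and below those of fibroblasts. *Krt8* had 1 and 8 UMIs and *Krt18* 0 in both. The collagen genes stood at 749.3 and 542.2 CPM in these barcodes, which were not sorted into fibroblasts and others.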

How the results depend on the processing

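No paired analysis was possible because each genotype had 1 library and the results come from no test. With a minimum of 2000 UMIs, 1 member in place of 0 passed 2-fold between the libraries in other cells, *S100a6* at 2.66; without 5 knockout cells and 1 wild-type cell with the most UMIs of a member it was 1.34, and with 0.2% ES cell markers 1.30. The count was 0 under the other settings, and 6 genes were 4-fold higher in fibroblasts under every setting run in both libraries. Median of ratios scaling, which moved all genes by 0.06 on the log2 scale, was not applied to fibroblasts against other cells. The settings that most moved single ratios were the collagen limit, the depth minimum and the share of ES cell markers. The limits of 2000 UMIs with 0.05% collagen and of 0.2% ES cell markers, the correlations under 0.05% collagen, and leaving out the cells with the most UMIs of a member, were chosen after the data were seen. The ratio of fibroblasts over other cells of *S100a6* ran from 194.4 to 439.95 in the wild-type and from 128.1 to 427.2 in the knockout library, and that of *Anxa2* in the knockout library from 88.4 to 235.7. For the ratio of the libraries in other cells, *Anxa2* ran from 0.690 to 1.09 and *Lgals1* from 0.697 to 0.877. Counts of a few UMIs per cell and 23 knockout fibroblasts limit what these data can show.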
